A study of Bos taurus with 21 samples.

Results

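Lactose is the main sugar of milk, and 6 genes of its synthesis were described in the cells that dairy cows shed into milk. They were taken by symbol from the pathway: LALBA, B4GALT1, SLC2A1, UGP2, SLC35A2 and PGM1. All 6 had 1 row each in the count tables, and they are 6 of the 12333 genes that were counted in any cow. The RNA-seq data came from the milk somatic cells of 21 Holstein cows, a dairy breed. The cows fell into a high yielding group (HY, 9 cows) and a low yielding group (LY, 12 cows), which the study formed from a national breeding index. No cow was treated, parity was 2 to 4 in both groups, and each cow gave 1 library. Lactation period, the days since calving, was 41 to 268 for HY cows and 52 to 270 for LY cows. The breeding value of milk yield, for which no unit is given, lay between 181.118 and 468.053 for HY cows and between -404.27 and 86.92 for LY cows. The LY cows sampled first, 3407, 2893 and 3369 at 52, 59 and 79 days, had the lowest breeding values (-364.095, -368.867 and -404.27). Within LY, relations with lactation period and with milk yield therefore cannot be told apart.

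Lactose is made in the Golgi apparatus of secretory epithelial cells of the mammary gland, from glucose and UDP-galactose. The transporter encoded by SLC2A1 (GLUT1) brings glucose into the cell, and the enzymes encoded by PGM1 and UGP2 turn glucose phosphate into UDP-glucose, which is then converted to UDP-galactose. SLC35A2 encodes the transporter that carries UDP-galactose into the Golgi. There the galactosyltransferase encoded by B4GALT1 joins galactose to glucose once it is bound to alpha-lactalbumin, the milk protein encoded by LALBA. Lactose draws water into milk by osmosis, so its synthesis is linked to milk volume. LALBA is a product of lactating mammary epithelium, whereas the other 5 genes are used by many cell types, leukocytes among them. Milk somatic cells are a mixture of leukocytes and shed epithelial cells. In such bulk samples fewer cells of a type and less RNA per cell cannot be told apart.

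The libraries held 7878557 to 28541904 counts on genes. Levels are given as CPM (counts scaled to a fixed total of counts on genes) after TMM scaling, which corrects each library for its composition. The TMM factors ranged from 0.460 to 1.48, and they were under 0.5 in 2 libraries, HY cow 3262 and HY cow 3280, both sampled early in lactation. The 4 casein genes took between 0.0876% and 44.2% of the counts of a cow. By the mapping rate of the reads the cows form a set of 16 (8 HY and 8 LY) and a set of 5 (1 HY and 4 LY), and values within the 16 are given beside the pooled ones.

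Of the 6 genes, LALBA varied most between cows. It had 27.2 CPM in the lowest cow, 3054 in the median cow and 100400 in the highest, a range of 3697-fold. The standard deviation of its log2 level was 3.38 over the 21 cows. Only 3 of the 9628 genes with a mean of at least 10 counts per cow had a higher one, and the median over these genes was 0.71. The counts behind these levels were 217 to 1101584. The highest levels belonged to HY cow 3280, HY cow 3262, LY cow 2893 and HY cow 3075, all within the first 108 days, and the lowest to HY cow 3235 at 176 days.

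The enzymes and transporters varied far less. B4GALT1 had 23.5 CPM in the lowest cow, 89.3 in the median cow and 204.1 in the highest. SLC2A1 had 55.0, 104.3 and 421.9 CPM in the same order. These are ranges of 8.69-fold and 7.68-fold, with SDs of 0.67 and 0.81 on the log2 scale, close to the median gene. UGP2 ranged from 160.7 to 1744 CPM with a median of 346.2, and SLC35A2 from 1.57 to 18.5 CPM with a median of 8.80. PGM1 was the most even of the 6, with 45.2 CPM in the lowest cow, 73.2 in the median cow and 123.2 in the highest. Its SD of 0.38 on the log2 scale was above that of only 7.14% of the 9628 genes. SLC35A2 was the gene with the fewest counts, 8 to 413 per cow. The 8 counts of HY cow 3280 equal 0.783 CPM before TMM scaling, with an exact (Clopper-Pearson) 95% interval of 0.338 to 1.54 that covers counting error only. The other 20 cows had at least 10 counts of it.

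The first comparison asked whether the genes change over lactation. The levels of the genes in every cow against lactation period are plotted beside the tests. B4GALT1 had a positive slope over lactation and LALBA a negative one, and neither passed the adjusted threshold. In edgeR's quasi-likelihood test of the slope per 100 days, 0 of the 6 genes had an adjusted p under 0.1, against 6.22% of all 12333 genes. The count at an unadjusted p under 0.05 was 2 of 6, B4GALT1 and LALBA, against 22.3% of all genes, so the count is near the background. The median slope over all genes was 0.02 on the log2 scale.

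**Figure D1:**
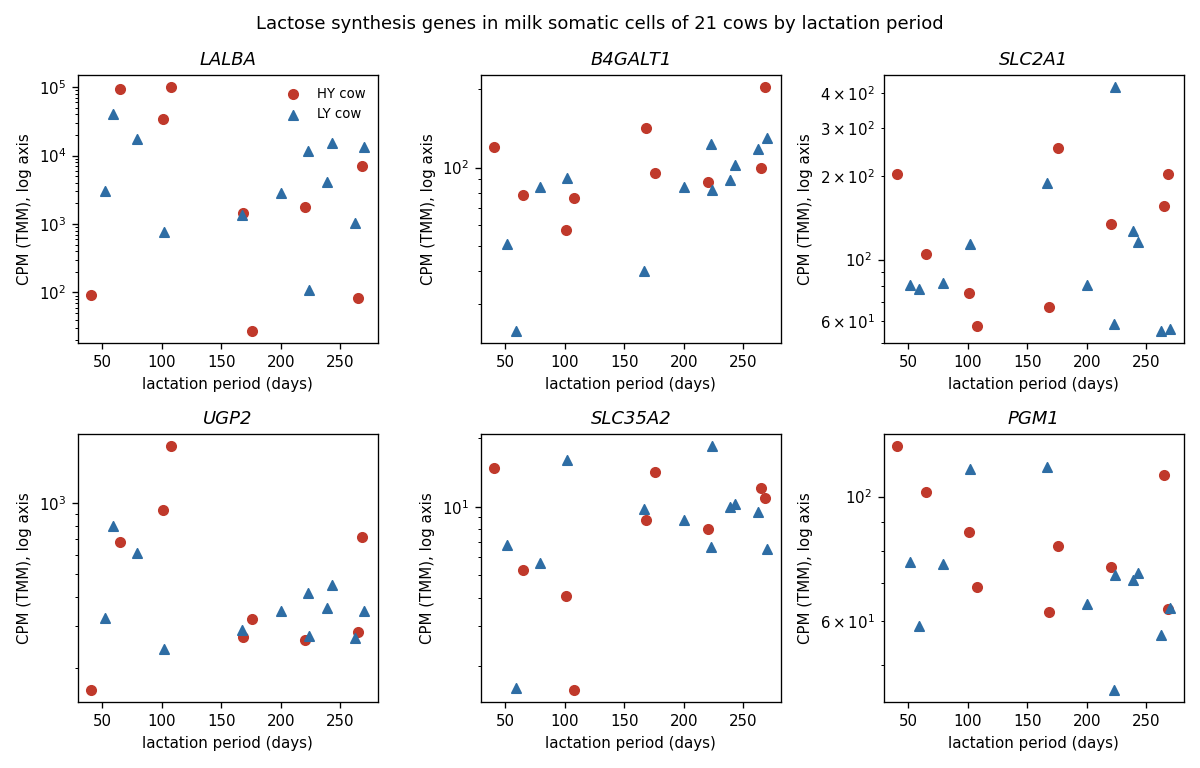
Level of each gene (CPM after TMM scaling, log axis) against lactation period in days, 1 point per cow, circles for the 9 HY cows and triangles for the 12 LY cows. B4GALT1 lay between 23.5 and 119.8 CPM in the 8 cows up to 108 days and between 81.7 and 204.1 CPM in the 10 cows from 200 days, while LALBA ran from 92.2 to 100400 CPM in the early and from 83.5 to 15090 CPM in the late cows.

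B4GALT1, the catalytic subunit of lactose synthase, had 23.5, 77.5 and 119.8 CPM in the lowest, median and highest of the 8 early cows, those up to 108 days. In the 3 cows at 167 to 176 days it had 142.1 CPM in HY cow 2920, 40.1 in LY cow 3161 and 95.2 in HY cow 3235. In the 10 late cows, from 200 days on, it had 81.7, 100.7 and 204.1 CPM. The early and late cows overlapped, but only 2 of the early cows, HY cow 2814 and LY cow 3198, exceeded 90 CPM, against 6 of the late ones. The mean log2 level was 6.06 ± 0.71 (SD, n = 8) early and 6.76 ± 0.40 (SD, n = 10) late. This is a difference of 0.70, or 1.62-fold, with an exact two-sided permutation p of 0.00809 over 43758 choices. Within the larger mapping set the difference was 0.72 (exact permutation p = 0.0262, 7 early and 7 late cows). The exact test was run on the 6 genes only, so these p cannot be set beside a share of all genes.

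Over all 21 cows the edgeR slope of B4GALT1 was 0.38 ± 0.15 (SE) on the log2 scale per 100 days, with p = 0.0155 and an adjusted p of 0.138 over all genes. With milk yield group and parity in the model, the edgeR slope was 0.41 ± 0.15 (SE), with p = 0.0106 and an adjusted p of 0.170. The log2 level was correlated with lactation period over the 21 cows (Pearson r = 0.543 with a permutation p of 0.0087, Spearman rho = 0.594 with 0.00547). Leaving out the 2 cows of most distant level gave r = 0.400, and within the 16 cows of the larger mapping set it was 0.522. It was positive within HY (0.475) and within LY (0.692). The adjusted p of the slope lay between 0.0699, with DESeq2, and 0.325, without the 2 cows of low TMM factor. It was under 0.1 with DESeq2, when only genes counted 10 times or more in each cow were kept (0.0808) and without HY cow 2814.

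LALBA, the regulatory subunit, had 92.2, 25850 and 100400 CPM in the lowest, median and highest of the 8 early cows. In the 3 middle cows it had 1454 CPM in HY cow 2920, 1350 in LY cow 3161 and 27.2 in HY cow 3235. In the 10 late cows it had 83.5, 3458 and 15090 CPM. The groups overlapped over most of their range, and no late cow reached the median early level. The edgeR slope was -1.43 ± 0.64 (SE) per 100 days on the log2 scale, with p = 0.0350 and an adjusted p of 0.192. It was -0.70 ± 0.59 (SE) without HY cows 3262 and 3280, with an edgeR p of 0.244. Leaving out 1 of LY cows 2893 and 3272 or HY cows 3057, 3075, 3262 and 3280 also took the p above 0.05, to between 0.0501 and 0.0927.

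On the log scale, where each cow weighs the same, no difference of LALBA was detected. The mean log2 level was 13.16 ± 3.62 (SD, n = 8) early and 11.13 ± 2.72 (SD, n = 10) late, a difference of -2.03 (exact permutation p = 0.191). The correlation with lactation period was not detected (Pearson r = -0.232 with a permutation p of 0.310, Spearman rho = -0.196 with 0.392). With the 2 cows of most distant level left out r was -0.154, and within the larger mapping set it was -0.189. HY cow 2814, sampled at 41 days, the earliest of all, had the lowest early level of LALBA. Without this cow the early to late difference was -2.98 (exact permutation p = 0.0405), and without HY cows 3262 and 3280 it was -0.89 (exact permutation p = 0.568).

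The other 4 genes did not pass either threshold over lactation in edgeR. The slopes per 100 days were 0.22 ± 0.22 (SE) for SLC2A1 and 0.27 ± 0.22 for SLC35A2 on the log2 scale, and -0.40 ± 0.22 for UGP2 and -0.19 ± 0.11 for PGM1. The edgeR p of the 4 slopes lay between 0.0807 for UGP2 and 0.342 for SLC2A1. The UGP2 slope was -0.16 ± 0.19 (SE) without HY cows 3262 and 3280 (edgeR p = 0.408). SLC35A2, the UDP-galactose transporter, had 1.57, 5.46 and 16.1 CPM in the lowest, median and highest early cow and 6.53, 9.74 and 18.5 CPM in the late cows. Its lowest levels were those of HY cow 3280 and LY cow 2893, both early. The difference of the mean log2 level, 0.86, had an exact permutation p of 0.0470. This p rose above 0.05 with a pseudocount of 1 (0.0518), within the larger mapping set (0.150), without HY cows 3262 and 3280 (0.162), and without any 1 of 13 of the 18 cows. PGM1 had a median of 81.4 CPM early and 67.5 late, a log2 difference of -0.34 (exact permutation p = 0.0548). For UGP2 the medians were 646.8 and 347.0 CPM, and the difference of -0.60 had an exact permutation p of 0.143, against -0.26 without HY cows 3262 and 3280 (exact permutation p = 0.492). With 1 cow left out, the exact permutation p of UGP2 ran from 0.0247, without HY cow 2814, to 0.319. For SLC2A1 the medians were 81.3 and 121.6 CPM, with a difference of 0.31 (exact permutation p = 0.433).

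With milk yield group and parity in the model, 0 genes of the 6 had an adjusted edgeR p under 0.1, against 0.00811% of all genes (1 gene). The unadjusted count was 1 of 6, B4GALT1, against 18.4% of all genes. LALBA again had a slope of -1.43, now with an SE of 0.80 and an edgeR p of 0.0854, and -0.95 without HY cows 3262 and 3280 (edgeR p = 0.174). Without HY cow 2814 the unadjusted count was 4 of 6, with LALBA, UGP2 and SLC35A2 added, against 2668 of the 12321 genes tested in that fit. The slopes over lactation were also compared between HY and LY in an interaction model. Neither rule gave any of the 6 genes, against 0% of all genes at the adjusted and 2.61% at the unadjusted threshold. The difference of slopes, HY minus LY, was -1.73 ± 1.28 (SE) per 100 days on the log2 scale for LALBA (edgeR p = 0.189). Without HY cow 3014 it was -3.97 (edgeR p = 0.0313), and without HY cows 3262 and 3280 it was -0.56 (edgeR p = 0.674). It lay between -0.22 and 0.01 for the other 5 genes, with edgeR p of 0.444 and more.

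LALBA was also set against the caseins, the main milk proteins of the same secretory cells, as the ratio of its counts to the summed counts of CSN1S1, CSN1S2, CSN2 and CSN3 of the same cow. Such a ratio within a library does not depend on its scaling. LALBA and the summed caseins were closely correlated over the 21 cows (Pearson r = 0.983, Spearman rho = 0.973, permutation p = 1e-05 for both, the smallest that 100000 permutations can give). Their r was 0.977 without the 2 cows of most distant casein level and 0.982 within the larger mapping set. The ratio nevertheless moved over a range of 2.70 on the log2 scale. It was lowest, at 2.75%, in HY cow 3057 at 265 days and highest, at 17.9%, in LY cow 2893 at 59 days.

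LALBA counts were 4.19%, 8.75% and 17.9% of casein counts in the lowest, median and highest of the 8 early cows. In the 3 middle cows they were 6.35% in HY cow 2920, 8.38% in LY cow 3161 and 3.14% in HY cow 3235. In the 10 late cows they were 2.75%, 5.15% and 6.47%. The groups overlapped, since 3 of the early cows, LY cow 3198, LY cow 3369 and LY cow 3407, lay within the range of the late ones. The mean log2 ratio was lower late, -4.38 ± 0.44 (SD, n = 10), than early, -3.54 ± 0.70 (SD, n = 8). The difference was -0.84 (exact permutation p = 0.00585), and -1.09 within the larger mapping set (exact permutation p = 0.00291).

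The ratio was negatively correlated with lactation period over all 21 cows (Pearson r = -0.527 with a permutation p of 0.0138, Spearman rho = -0.471 with 0.0329). With adjustment over the 120 relations computed, r had p = 0.0425 and rho p = 0.0963. Without the 2 cows of most distant ratio r was -0.419, within the larger mapping set it was -0.647, and it was -0.722 within HY and -0.343 within LY. Without HY cows 3262 and 3280 r was -0.466 (permutation p = 0.0420). No single cow took the p above 0.05 when it was left out, and r then lay between -0.631 and -0.452. With CSN1S1 and CSN2 alone as the denominator r was -0.542 (permutation p = 0.0102).

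**Figure D2:**
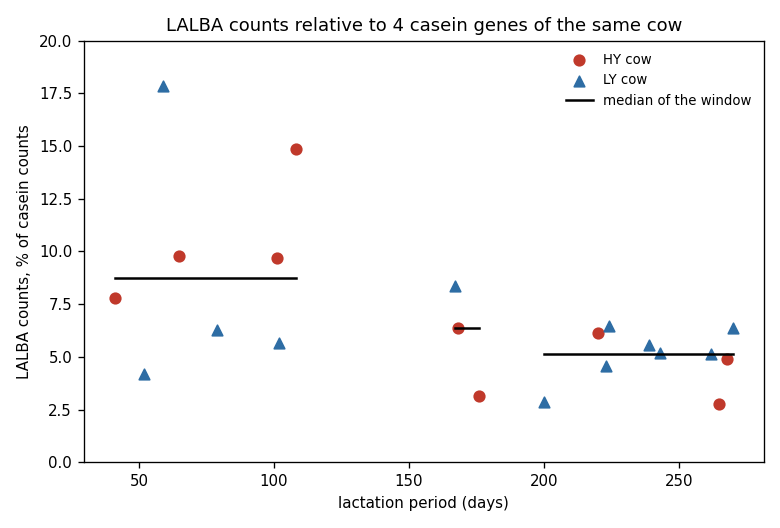
LALBA counts as a percentage of the summed counts of 4 casein genes of the same cow, against lactation period in days, 1 point per cow, circles for HY and triangles for LY. Black lines are the medians of the early (8.75%), middle (6.35%) and late cows (5.15%), and every cow above 9% was sampled within the first 108 days.

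A relation of the ratio with milk yield was not detected. The median was 6.35% for HY cows and 5.61% for LY cows, and the mean log2 ratio differed by 0.12 (exact permutation p = 0.707). The correlation with milk yield was near 0 (Pearson r = -0.0662 with a permutation p of 0.776, Spearman rho = -0.0351 with 0.879). It was 0.0315 (r) without the 2 cows of most distant ratio, -0.156 within the larger mapping set and -0.236 without HY cows 3262 and 3280. Adjusted over the 120 relations the p of r was 0.831 and that of rho 0.902. Without HY cows 3262 and 3280 the difference between HY and LY was -0.14, on the other side of 0 (exact permutation p = 0.656).

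The second comparison was with milk yield, taken as a continuous trait and regressed on the log2 level of each gene as in the study. The plot of level by milk yield shows the 21 cows. None of the 6 genes passed an adjusted p under 0.1 in the simple or the multiple regression, against 0% of all genes in both. At an unadjusted p under 0.05 the simple regression gave 1 of the 6, B4GALT1, against 2.49% of all genes. When parity and lactation period were added it gave 0, against 3.01%.

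**Figure D3:**
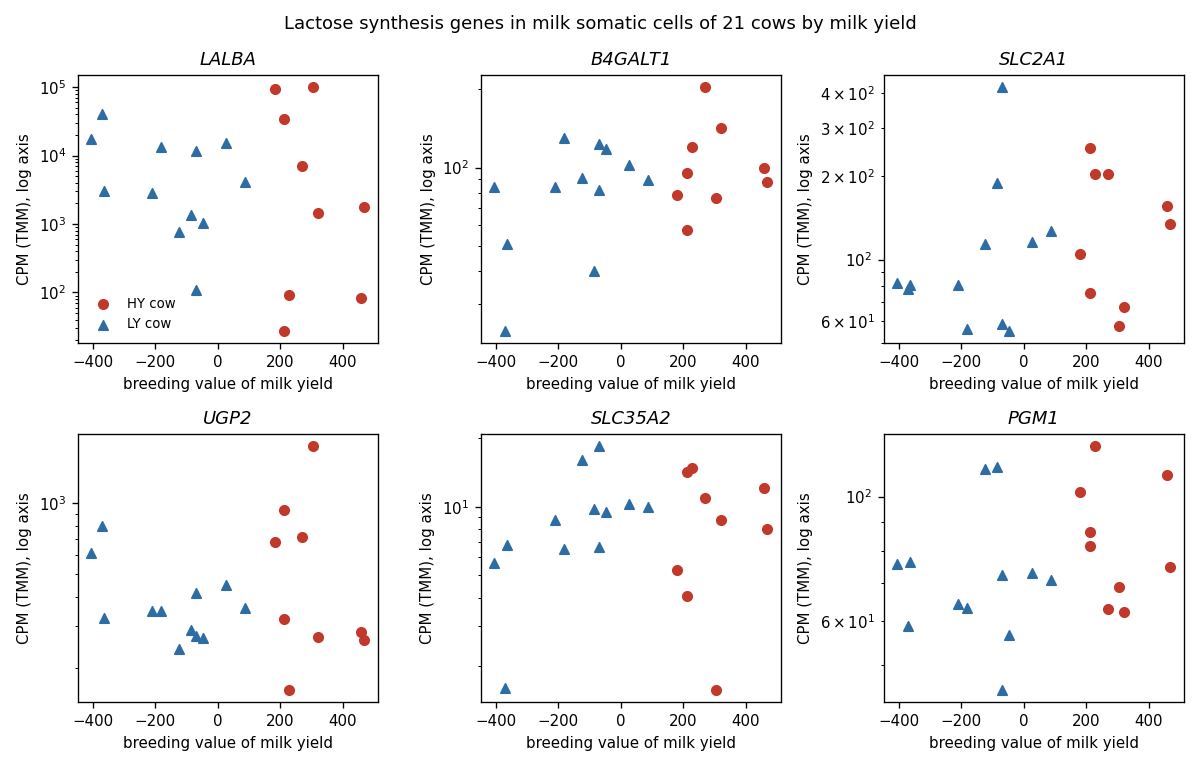
Level of each gene (CPM after TMM scaling, log axis) against the breeding value of milk yield (no unit given), 1 point per cow, circles for HY and triangles for LY. Every gene overlapped between the groups, and the highest B4GALT1 level, 204.1 CPM, belonged to an HY cow and the lowest, 23.5 CPM, to an LY cow.

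For B4GALT1 the breeding value was higher by 172.0 ± 81.7 (SE) units per doubling of the level, with p = 0.0488 in the regression fitted across all genes. The adjusted p over all 12333 genes was 0.9999. The permutation p of the correlation was close to it (Pearson r = 0.435 with a permutation p of 0.0481, Spearman rho = 0.374 with 0.0972). The relation was weaker without the 2 cows of most distant level (r = 0.225) and within the larger mapping set (r = 0.363). It was 0.0975 within HY and 0.492 within LY, where a relation with lactation period cannot be told apart from it. The regression p rose above 0.05 with DESeq2-type size factors, with scaling without the milk protein genes, with Huber regression, and when any 1 of 13 cows was left out. With parity and lactation period in the regression the slope was 165.1 ± 102.2 (SE), with p = 0.125 in the regression across all genes.

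For the 5 remaining genes a relation with milk yield was not detectable. Pearson r was -0.235 for LALBA (permutation p = 0.303), 0.268 for SLC2A1 (permutation p = 0.240), -0.0108 for UGP2 (permutation p = 0.962), 0.167 for SLC35A2 (permutation p = 0.472) and 0.25 for PGM1 (permutation p = 0.276). Spearman rho was -0.216, 0.248, -0.151, 0.179 and 0.121 in the same order, with permutation p from 0.276 to 0.599. Without the 2 cows of most distant level r was -0.0375, 0.362, -0.305, 0.174 and 0.183, and within the larger mapping set it was -0.313, 0.439, -0.0425, 0.211 and 0.314. Within LY, r reached 0.627 for SLC35A2 and -0.504 for UGP2, against 0.104 and -0.300 within HY. These differences between the groups were not tested, and within LY relations with milk yield and with lactation period cannot be told apart. In the multiple regression the slope of PGM1 was 302.2 ± 170.5 (SE) units per doubling, with p = 0.0942 in the regression across all genes, and 359.2 without HY cows 3262 and 3280 (p = 0.0463 in that regression). Leaving out these 2 cows moved the simple slope of LALBA from -18.3 to -37.0, that of UGP2 from -3.51 to -93.9 and that of SLC35A2 from 49.5 to 141.1 units per doubling, with p from 0.0674 to 0.342 in the regression across all genes.

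The third comparison set HY against LY. At an adjusted edgeR p under 0.1 neither the 6 genes nor any other gene passed (0% of all genes). At an unadjusted p under 0.05 it was 0 of 6, against 4.70% of all genes, and DESeq2 also gave 0 of 6 at that threshold. LALBA had 27.2, 1792 and 100400 CPM in the lowest, median and highest of the 9 HY cows and 107.3, 3576 and 40060 CPM in the 12 LY cows. Thus HY held both the highest and the lowest cow, and its SD on the log2 scale was 4.50 against 2.42 in LY.

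The direction of the LALBA difference depended on the scale. The mean level was higher in HY, 26510 ± 41460 CPM (SD, n = 9), than in LY, 9245 ± 11550 CPM (SD, n = 12). The edgeR log2 fold change, HY over LY, was 1.52 ± 1.08 (SE), with p = 0.171. The mean log2 level was lower in HY, 11.11 ± 4.50 (SD, n = 9), than in LY, 11.85 ± 2.42 (SD, n = 12). This difference of -0.75 had an exact permutation p of 0.627 over 293930 choices. Without HY cows 3262 and 3280 the edgeR value also turned, to -0.47 ± 1.08 (SE), with p = 0.664. No direction for LALBA between the groups can be given from these cows.

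For the other genes the HY and LY cows overlapped and the difference was within the spread between cows. The median of B4GALT1 was 95.2 CPM for HY cows and 86.9 for LY cows, and its edgeR log2 fold change was 0.33 ± 0.26 (SE), with p = 0.221. PGM1 had 81.6 and 71.6 CPM, with 0.22 ± 0.18 (edgeR p = 0.236). SLC2A1 had 134.4 and 81.3 CPM, with 0.20 ± 0.35 (edgeR p = 0.576), and 0.37 without HY cows 3262 and 3280. UGP2 had similar medians, 321.8 and 347.0 CPM, and a fold change of 0.60 ± 0.35 (edgeR p = 0.0968). HY cow 3280 alone reached 1744 CPM, and the value was 0.20 without this cow and 0.14 without HY cows 3262 and 3280. SLC35A2 had 8.78 and 9.13 CPM, and its log2 fold change of -0.05 ± 0.36 (edgeR p = 0.899) changed sign within the larger mapping set (0.12) and without HY cows 3262 and 3280 (0.19). In the exact permutation test the lowest p of the 6 genes was 0.174, for PGM1.

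The 6 genes did not all move together across the cows. Of their 15 pairs, 5 had a positive and 10 a negative Spearman rho, and 6 of the 15 had a permutation p of rho under 0.05. The share of all gene pairs with such a p was not computed, so this count is not read as a result about the 6 genes. Among the 9627 other genes the share with a positive rho ran from 41.1% for LALBA to 55.7% for SLC35A2. All points share the libraries and their scaling, and every level of a library falls when the caseins take more of its counts, which TMM scaling is meant to correct. LALBA and UGP2 were positively correlated over the 21 cows (Pearson r = 0.787, Spearman rho = 0.865, permutation p = 1e-05 for both, adjusted p over 120 relations 0.00012 and 0.000171). Without the 2 cows of most distant LALBA level r was 0.867, and within the larger mapping set it was 0.789. UGP2 had a higher rho with LALBA than 96.9% of the 9627 other genes.

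LALBA and SLC35A2 ran in opposite directions (Pearson r = -0.791 with a permutation p of 1e-05, Spearman rho = -0.836 with 4e-05, adjusted p over 120 relations 0.00012 and 0.000436). Their r was -0.808 with the 2 most distant cows left out and -0.771 within the larger mapping set. Only 0.789% of the other genes had a lower rho with LALBA than SLC35A2 had. In the 4 cows with the most LALBA, SLC35A2 had from 1.57 to 5.27 CPM, all under its median of 8.80. SLC2A1 was also lower where LALBA was higher (Pearson r = -0.656 with a permutation p of 0.00128, Spearman rho = -0.532 with 0.0141, adjusted p over 120 relations 0.00549 and 0.0470). This r was -0.587 with the 2 most distant cows left out and -0.745 within the larger mapping set. Of the other genes, 13.5% had a lower rho with LALBA than SLC2A1 had.

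Both transporters rose together, SLC2A1 with SLC35A2 (Pearson r = 0.641 with a permutation p of 0.00174, Spearman rho = 0.726 with 0.00025). Adjusted over the 120 relations these p were 0.00696 and 0.00184, and r was 0.552 with the 2 most distant cows left out and 0.689 within the larger mapping set. SLC35A2 had a higher rho with SLC2A1 than 98.4% of the other genes. SLC35A2 and UGP2 were negatively correlated (Pearson r = -0.807 with a permutation p of 4e-05, Spearman rho = -0.666 with 0.00150), with adjusted p over 120 relations of 0.000343 and 0.00783. Their r was -0.676 with the 2 most distant cows left out and -0.820 within the larger mapping set. Of the other genes, 6.34% had a lower rho with UGP2 than SLC35A2 had. SLC2A1 and PGM1 had an r of 0.482 (permutation p = 0.0262) and a rho of 0.543 (permutation p = 0.0118), with adjusted p of 0.0683 and 0.0405. The r of this pair was 0.650 with the 2 most distant cows left out and 0.567 within the larger mapping set. PGM1 had a higher rho with SLC2A1 than 89.6% of the other genes. B4GALT1, the catalytic partner of LALBA, was not detectably related to it (Pearson r = -0.238 with a permutation p of 0.301, Spearman rho = -0.317 with 0.161), with r of -0.234 with the 2 most distant cows left out and -0.244 within the larger mapping set. The signs of these correlations were the same with DESeq2-type size factors and with scaling without the milk protein genes, where r of LALBA was 0.796 and 0.789 with UGP2 and -0.776 and -0.782 with SLC35A2.

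**Figure D4:**
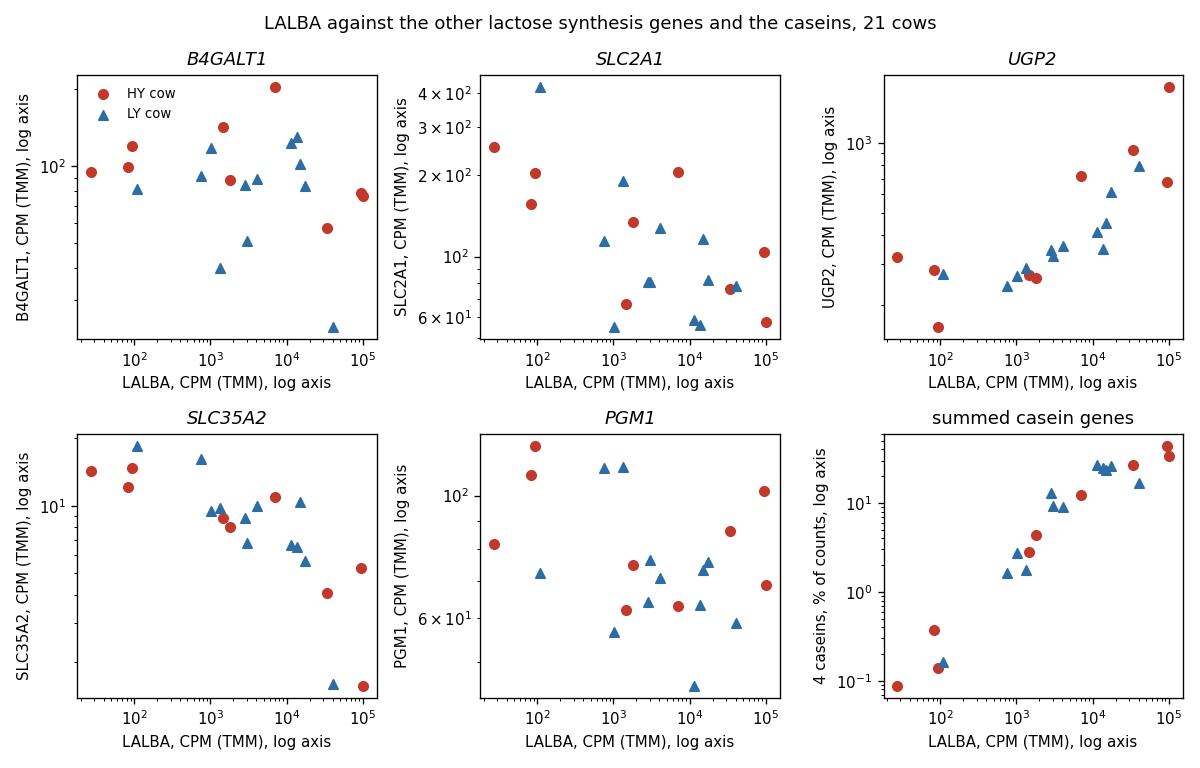
LALBA level (CPM after TMM scaling, log axis) against the level of each of the other 5 genes and against the share of 4 casein genes in the counts (%, log axis), 1 point per cow, circles for HY and triangles for LY. UGP2 and the caseins were higher and SLC35A2 and SLC2A1 lower in cows with more LALBA.

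The genes whose levels ranked the cows most like each of the 6 were taken among 9628 genes, by Spearman rho over the 21 cows. Since they are the extremes of so many, they are given as a description. For LALBA they were C2H2orf80 (rho = 0.992), BTN1A1 (0.991), ALOX15, HSTN and PAEP (0.987 each). BTN1A1 encodes butyrophilin of the milk fat globule membrane, and PAEP is the symbol of beta-lactoglobulin. The lowest rho with LALBA was that of STK10 (-0.951). For UGP2 they were FAM177A1 (0.935), METTL9 (0.932), C6H4orf19 (0.927), EFNA5 (0.922) and PERP (0.919), the last a membrane protein of epithelial cell contacts, and the lowest was MAVS (-0.935).

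B4GALT1 had lower maxima, RPRD2 (0.843), FAM65B and PRUNE (0.826 each), ATP1B1 and TAGAP (0.817 each), with MRPL21 lowest (-0.845). For SLC2A1 the nearest genes were BNIP3 (0.929), DDX41 (0.923), BCL2L1 (0.910), ENO1 (0.900) and PLK3 (0.873), with DHX29 lowest (-0.839). ENO1 encodes enolase, an enzyme of glycolysis. For SLC35A2 they were GATAD2A (0.939), ADAP1 (0.938), ACTN4 (0.936), GGA1 and POR (0.935 each), with GSKIP lowest (-0.921). For PGM1 they were DDOST (0.922), FCGRT (0.913), SLC25A3 (0.904), P4HB (0.900) and ANXA2 (0.892), with ARFGEF1 lowest (-0.875). P4HB encodes protein disulfide isomerase of the endoplasmic reticulum.

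The neighbouring steps of the pathway were described by lists of other genes, with the counts that passed edgeR's test over lactation. Of all genes 6.22% passed the adjusted and 22.3% the unadjusted threshold. Among 11 tested genes of glucose uptake, 1 fell at an adjusted p under 0.1 and the median slope was -0.07 per 100 days. That gene was SLC2A8, a glucose transporter of inner membranes, with -0.74 ± 0.17 (SE) per 100 days on the log2 scale and an edgeR adjusted p of 0.0639. With milk yield group and parity in the model the adjusted edgeR p of SLC2A8 was 0.143, above 0.1. SLC2A3 (GLUT3), a glucose transporter that leukocytes carry, had 1100 to 18400 CPM and a slope of 0.60 ± 0.29 (edgeR p = 0.0480, adjusted p = 0.219). SLC2A2 was at 0 in 12 cows and did not exceed 1.60 CPM.

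Of 4 tested genes of hexose phosphorylation none passed the adjusted threshold, and the median slope was -0.04. HK1, the hexokinase of most tissues, had 55.8, 160.0 and 316.0 CPM in the lowest, median and highest cow, and its rho with LALBA was -0.903. Of 10 tested genes of the Leloir pathway and UDP-sugars, which interconvert galactose and glucose, none passed the adjusted threshold and the median slope was -0.07. Among those at an unadjusted p under 0.05, PGM2L1 had a slope of 0.57 (edgeR p = 0.0344, adjusted p = 0.191) and GALM, aldose mutarotase, one of -0.66 (edgeR p = 0.0462, adjusted p = 0.215).

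Among the 5 tested relatives of B4GALT1, none passed the adjusted threshold. B4GALT6, which makes lactosylceramide, had a slope of 0.75 ± 0.28 (edgeR p = 0.0125, adjusted p = 0.126) and B4GALT4 one of 0.36 ± 0.17 (edgeR p = 0.0432, adjusted p = 0.210), both positive like that of B4GALT1. The median slope of the 5 was -0.04. Of the 11 tested relatives of SLC35A2 in the SLC35 family, 2 fell at an adjusted p under 0.1, and the median slope was -0.12. They were SLC35B1, with -0.42 ± 0.12 (edgeR adjusted p = 0.0722), and SLC35C1, the GDP-fucose transporter, with -0.49 ± 0.15 (edgeR adjusted p = 0.0875). Neither passed with milk yield group and parity in the model (edgeR adjusted p of 0.145 and 0.170). At an unadjusted p under 0.05 there were 4 genes with a negative slope, SLC35D2 and SLC35A4 beside these, and 1 with a positive one, SLC35A5 (0.43, edgeR p = 0.0408).

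Of the 11 tested genes of lactogenic hormone signalling none passed the adjusted threshold, and the median slope was 0.12. The signal inhibitor SOCS3 had a slope of 0.98 (edgeR p = 0.0341), and STAT5B, one of the transcription factors of the prolactin pathway, one of 0.47 (edgeR p = 0.0368). ELF5, a transcription factor of alveolar epithelium, had 1.5 to 1770 CPM and a rho of 0.973 with LALBA. Of the 6 tested milk protein genes other than LALBA, GLYCAM1 with -1.50 (edgeR p = 0.0368) and PAEP with -1.34 (edgeR p = 0.0376) had an unadjusted p under 0.05, none passed the adjusted threshold, and the median slope was -0.98. Between HY and LY, 1 gene of glucose uptake had a positive and 1 a negative fold change at an unadjusted p under 0.05. They were SLC2A5, a fructose transporter, with 0.88 (edgeR p = 0.0138, adjusted p = 0.999) and SLC5A11, which had no count in 15 cows. In the lactogenic list CISH, an inhibitor of the same pathway, had -1.59 (edgeR p = 0.0207, adjusted p = 0.999), and the other pathway lists held none.

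Markers of the cell types in milk moved with the genes, and their part in the results above was not tested. All 13 epithelial markers were counted. Their summed level ranged from 431.3 to 18870 CPM in HY and from 849.7 to 6770 in LY, and from 431.3 to 18870 in early and 700.9 to 6472 in late cows. Of the 10 macrophage markers 8 were counted, with a summed level of 1390 to 6663 CPM in HY, 1725 to 5748 in LY, 1390 to 6663 in early and 1725 to 4796 in late cows. Over lactation 3 of the 13 epithelial markers, MUC1, KRT19 and CLDN3, had a negative slope at an unadjusted edgeR p under 0.05, against 22.3% of all genes. Of these MUC1 passed the adjusted threshold (-1.68, edgeR adjusted p = 0.0875), but not with milk yield group and parity in the model (0.212). None of the 8 macrophage, 8 T cell, 4 endothelial or 4 basal epithelial markers counted had an unadjusted edgeR p under 0.05. The summed T cell markers had 55.98, 193.3 and 566.0 CPM in the lowest, median and highest early cow and 227.1, 439.0 and 1319 CPM in the late cows. Of the 7 neutrophil markers counted, CXCR2 (0.71) and MMP9 (0.52) had a positive and LTF (-0.78) a negative slope at an unadjusted edgeR p under 0.05. Of the 4 B cell markers counted, IGJ, the joining chain of antibodies, passed the adjusted threshold (-1.29, edgeR adjusted p = 0.0639), but not with milk yield group and parity in the model (0.166). IGJ had a median of 5.41 CPM and a highest level of 181 CPM. The summed B cell markers had 281.7 CPM in HY cow 2814, at 41 days, and at most 40.8 CPM in any other cow. Their median was 12.1 CPM in the early and 18.67 CPM in the late cows. Red blood cell markers did not exceed 0.183 CPM in any cow, and HBB had no count. ALAS2 had a slope of 1.42 (edgeR p = 0.0223, adjusted p = 0.160).

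LALBA followed the summed level of the epithelial markers (Pearson r = 0.891, Spearman rho = 0.934) and ran against that of the macrophage markers (r = -0.807, rho = -0.816). UGP2 did the same, with an r of 0.924 and a rho of 0.917 against the epithelial and of -0.765 and -0.732 against the macrophage markers. SLC35A2 had the reverse pattern, with an r of -0.787 and a rho of -0.758 against the epithelial and 0.832 and 0.856 against the macrophage markers. The permutation p of these 12 values was at most 0.00026, and their adjusted p over the 120 relations at most 0.00184. Within the larger mapping set the 6 r were 0.892, -0.820, 0.922, -0.808, -0.779 and 0.844 in the same order, and without the 2 cows of most distant marker level they were 0.860, -0.746, 0.900, -0.594, -0.707 and 0.768. By median level XDH (1040 CPM) and BTN1A1 (276 CPM) weighed most in the epithelial sum. Taken singly, the epithelial markers had a rho with LALBA from 0.177 for CDH1 to 0.991 for BTN1A1, with 0.504 for KRT18 and 0.648 for KRT8. For the macrophage markers it ran from -0.887 for CSF1R to 0.0208 for MSR1.

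SLC2A1 rose with the macrophage markers (Pearson r = 0.715 with a permutation p of 0.00017, Spearman rho = 0.790 with 3e-05), and so did PGM1 (Pearson r = 0.682 with a permutation p of 0.00071, Spearman rho = 0.577 with 0.00761). Adjusted over the 120 relations, these p were 0.000971 and 0.00036 for SLC2A1 and 0.00341 and 0.0304 for PGM1. Without the 2 cows of most distant marker level r was 0.677 and 0.671, and within the larger mapping set it was 0.792 and 0.776. B4GALT1 was not detectably related to either list. It had an r of -0.194 (permutation p = 0.405) and a rho of -0.235 (permutation p = 0.306) with the epithelial markers, and an r of 0.221 (permutation p = 0.338) and a rho of 0.213 (permutation p = 0.354) with the macrophage markers. The r values were -0.186 and 0.165 with the 2 most distant cows left out and -0.200 and 0.212 within the larger mapping set. Neutrophil markers, of which 7 of 11 were counted, gave adjusted p of 0.112 or more with all 6 genes. The summed level of the 4 endothelial markers ran against LALBA (Spearman rho = -0.736, permutation p = 0.0002, adjusted p = 0.0016) and UGP2 (rho = -0.658, permutation p = 0.00125, adjusted p = 0.00714). It ran with PGM1 (rho = 0.648, permutation p = 0.00213, adjusted p = 0.0102) and SLC35A2 (rho = 0.565, permutation p = 0.00858, adjusted p = 0.0322). By median level VWF weighed most in this sum, with 83.3 CPM against 12.6 for PECAM1, 0.359 for KDR and 0.106 for CDH5. Taken singly, the rho with LALBA was -0.752 for VWF, -0.571 for PECAM1, -0.015 for KDR and -0.258 for CDH5. For T cell, B cell, basal epithelial and red blood cell markers no rho with the 6 genes had an adjusted p under 0.107. The rho of B4GALT1 furthest from 0 was with the basal epithelial markers (-0.443, permutation p = 0.0467, adjusted p = 0.125), and its rho with the red blood cell markers was 0.350. UGP2 had a Pearson r of -0.573 with the B cell markers (permutation p = 0.00999, adjusted p = 0.0333), which was -0.252 with the 2 most distant cows left out.

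**Figure D5:**
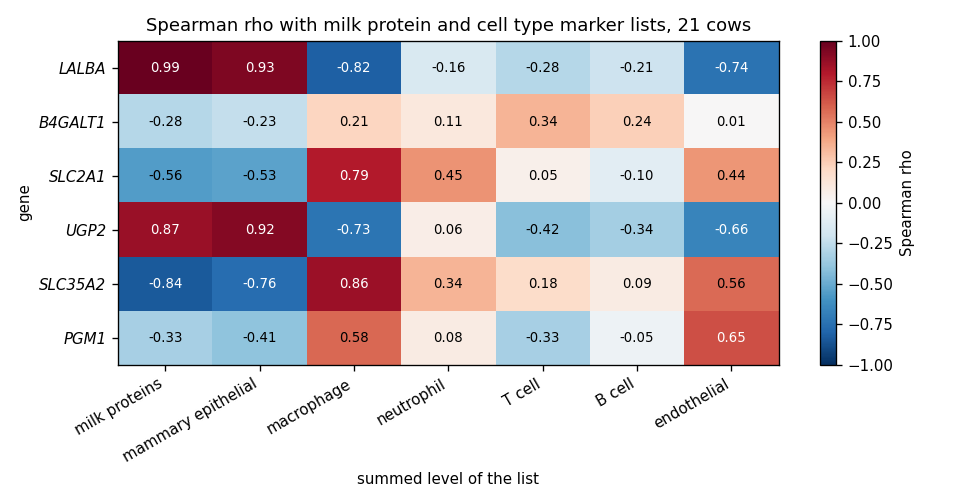
Spearman rho over the 21 cows between the log2 level of each gene (rows) and the summed level of the milk protein genes and of marker lists of 6 cell types (columns), red for positive and blue for negative. LALBA and UGP2 were positive with the milk protein and epithelial lists and negative with the macrophage list, SLC35A2 and SLC2A1 the reverse, and B4GALT1 lay between -0.284 and 0.339 for the lists shown.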

How the data were processed

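Per the labels, total RNA of milk somatic cells was extracted with TRIzol and sequenced on an Illumina platform, 1 library per cow. According to the study's methods and processing notes, the authors trimmed reads with Trimmomatic, mapped them to bosTau7 with Bowtie2 within TopHat2 and counted them per gene with HTSeq. Versions and the strand setting were not given in the sources used here. The deposited values are raw counts per gene, without normalization. The 5 HTSeq summary rows and 1 row without a gene name (0.036% to 0.151% of counts) were left out, leaving 13570 genes, of which 12333 had a count. No transcript lengths were used, so levels are compared between cows and not between genes. No pair of cows agreed within sampling noise (lowest chi-square per degree of freedom 33.7).

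The tests used edgeR 4.0.16 (quasi-likelihood, TMM) on the counts, with Benjamini-Hochberg adjustment over 12333 genes. Milk yield was regressed on log2(CPM + 0.25) by ordinary least squares, as in the study. Correlations had 100000 permutations, and group differences exact permutation tests, all two-sided. Early is up to 108 days, late from 200 days. The adjusted p of correlations covers 120 relations (6 genes with 2 traits and 15 lists, 15 pairs, LALBA with caseins, and the LALBA to casein ratio with 2 traits). The fits were tested on simulated data. Alternatives were DESeq2 1.42.0, its size factors, scaling without milk protein genes, a minimum of 10 counts in every cow, a pseudocount of 1, Huber regression, the 16 cows of the larger mapping set, and leaving out each cow. The genes and lists were chosen with earlier results of these data known. Named were the 6 genes, the 5 genes with the highest and the 1 with the lowest rho to each, and list genes at an unadjusted p under 0.05, up to 5 per list; ELF5, HK1, HBB and the cell type marker genes were added after their values were seen. Some list genes that met this rule are not reported here.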

Additional observations from a re-analysis of the deposited data

Results flagged for a closer look

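In 21 groups, each of 8 to 10 cows, 1 had a cow far from the others, and chance gives such a cow in about 1 of 20 groups. The groups were the HY, early and late cows, for each of the 6 genes and for the LALBA to casein ratio. B4GALT1 in HY cow 3014, sampled at 268 days, was at 204.1 CPM, the highest of the 10 late cows. Its gap to the next cow was 0.489 of the range of the late cows, above the critical value of 0.466 for 10 samples. Without this cow the edgeR slope of B4GALT1 over lactation was 0.31 per 100 days on the log2 scale, with p = 0.0488. The LY group, with 12 cows, was not tested, because the critical values used covered at most 10 cows. The difference of slopes between HY and LY had an edgeR p under 0.05 for 0 of the 6 genes.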

How the results depend on the processing

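Leaving out HY cows 3262 and 3280 together was chosen after the data were seen. Over lactation the count at an adjusted p under 0.1 was 1 (B4GALT1) in place of 0 with DESeq2 and with at least 10 counts in every cow, and with group and parity it was 1 (B4GALT1) with DESeq2. The count at an unadjusted p under 0.05 was 1 (B4GALT1) in place of 2 in the larger mapping set and without the 2 cows, and with group and parity 2 in place of 1 with DESeq2. In the simple regression on milk yield it was 0 in place of 1 with DESeq2-type factors, scaling without milk protein genes, at least 10 counts, Huber regression, the edgeR slope and the larger mapping set. In the multiple regression it was 1 (PGM1) in place of 0 without the 2 cows. Between early and late cows it was 1 (B4GALT1) in place of 2 with a pseudocount of 1, in the larger mapping set and without the 2 cows. The difference of the LALBA to casein ratio between HY and LY was -0.14 without the 2 cows.

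These changes of sign were of values that passed no threshold, and the cause was not tested. Without the 2 cows the log2 fold change between HY and LY was -0.47 for LALBA and 0.19 for SLC35A2, which was 0.12 in the larger mapping set. The slope difference was 0.38 for SLC2A1, 0.0055 for UGP2 and 0.062 for SLC35A2 in the larger mapping set, and 0.35 for UGP2 and -0.015 for PGM1 without the 2 cows. With milk yield, the edgeR slope per 100 units was 0.11 for LALBA and 0.044 for UGP2, and 0.20 for LALBA in the multiple model. For UGP2 Huber regression gave 5.002, and the multiple regression -85.7 without the 2 cows.

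With each cow left out in turn, the count over lactation ranged from 0 to 1 (adjusted) and 1 to 3 (unadjusted), with group and parity from 0 to 0 and 1 to 4, between HY and LY from 0 to 0 and 0 to 1, for slope differences from 0 to 0 and 0 to 1, in both regressions from 0 to 1, and between early and late cows from 1 to 4. The ratio of LALBA to caseins had an r from -0.631 to -0.452 with lactation period and from -0.187 to 0.146 with milk yield, a difference from -0.033 to 0.271 between HY and LY and from -0.984 to -0.685 between late and early. The fold change of SLC35A2 between HY and LY ranged from -0.17 to 0.10. Slope differences ranged from -0.47 to 0.0043 for B4GALT1, -0.20 to 0.35 for SLC2A1, -0.55 to 0.19 for UGP2, -0.34 to 0.50 for SLC35A2 and -0.17 to 0.13 for PGM1. The regression slope ranged from -73.7 to 29.8 for UGP2 and -12.9 to 130.4 for SLC35A2, and in the multiple regression from -54.6 to 97.2 and -51.1 to 106.3. At an unadjusted p under 0.05, UGP2 passed between HY and LY without HY cow 2814 or LY cow 2893, and over lactation without HY cow 2814, HY cow 3014 or LY cow 3407. PGM1 passed over lactation without HY cow 3057, and in the multiple regression without LY cow 3161 or HY cow 3280. No paired analysis was possible because replicate numbers were given in accession order and pair no cows. SLC35A2, with 8 counts in 1 cow, is the gene most limited by depth.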
